A study of Mus musculus with 4 samples.

Results

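The enzymes that prepare and cross-link collagen were followed through 4 single-cell RNA libraries of the mouse digit. They were 8 of the 32285 genes in the deposited matrices, taken by symbol: the 5 lysyl oxidases Lox, Loxl1, Loxl2, Loxl3 and Loxl4, and the 3 collagen lysyl hydroxylases Plod1, Plod2 and Plod3. All mice were wild-type FVB/NJ animals of 8 weeks, and both sexes were pooled according to the labels. One library came from unamputated digit at the level of the middle phalanx (P2). The others came from digits collected at 12, 17 and 28 days post-amputation (dpa) through P2, a level that heals by fibrosis and does not regrow. All 4 were dissociated with trypsin and collagenase I, sorted as live cells and run on 10x Chromium 3′ v3 chemistry. The number of animals behind a library was not given in the sources used here.

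Lysyl hydroxylases act inside the cell. They add hydroxyl groups to lysines of new procollagen chains, and Plod2 is the enzyme best known for the short telopeptides at the chain ends, whose hydroxylation sets which kind of cross-link forms later. Lysyl oxidases are secreted copper enzymes that oxidise lysines and hydroxylysines of collagen and elastin, so that neighbouring molecules become covalently joined. In connective tissue and scars these steps make collagen fibres stiff and hard to degrade, and hypoxia-inducible factors are known to drive several members.

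The genes lay on 7 chromosomes of GRCm38 (GENCODE M21, all 8 Ensembl identifiers matched). Loxl1 was at chr9:58287738-58313186 on the minus strand, Plod2 on the same chromosome at chr9:92542223-92608428 on the plus strand, Loxl2 at chr14:69609068-69695834 (plus) and Loxl3 at chr6:83034173-83052562 (plus). Loxl4 was at chr19:42593982-42612813 (minus), Plod1 at chr4:147909753-147936767 (minus), Plod3 at chr5:136987019-136996648 (plus). No member was X- or Y-linked. Loxl2 overlapped the antisense gene Gm27177 over 74219 bases, Loxl3 overlapped Htra2 over 1297 bases and Plod3 overlapped Znhit1 over 1003 bases on the opposite strand, and how strand was used in counting is not given in the sources used here, so reads of these pairs may not be told apart.

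RefSeq promoter sequence (GRCm38.p6) matched 3 of the 8 members, Loxl4, Plod1 and Plod3, and the 250 bases before each start are shown for these. Among them, Plod1 and Plod3 had UMIs in more cell classes and Loxl4 in fewer. Capitals mark ACGTG or GCGTG on either strand, the core letters of a hypoxia response element. The windows are chr19:42612807-42613056 (minus) for Loxl4, chr4:147936777-147937026 (minus) for Plod1 and chr5:136986769-136987018 (plus) for Plod3.
Loxl4: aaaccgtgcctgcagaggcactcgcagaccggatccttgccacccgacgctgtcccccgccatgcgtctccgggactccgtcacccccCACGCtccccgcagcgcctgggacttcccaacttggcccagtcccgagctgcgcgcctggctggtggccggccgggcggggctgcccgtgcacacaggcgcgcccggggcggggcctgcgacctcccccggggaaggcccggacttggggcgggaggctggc
Plod1: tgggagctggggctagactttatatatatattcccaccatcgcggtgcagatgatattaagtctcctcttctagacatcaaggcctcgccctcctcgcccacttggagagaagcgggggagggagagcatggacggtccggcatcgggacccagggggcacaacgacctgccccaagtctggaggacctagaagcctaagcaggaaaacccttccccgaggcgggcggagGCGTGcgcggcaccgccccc
Plod3: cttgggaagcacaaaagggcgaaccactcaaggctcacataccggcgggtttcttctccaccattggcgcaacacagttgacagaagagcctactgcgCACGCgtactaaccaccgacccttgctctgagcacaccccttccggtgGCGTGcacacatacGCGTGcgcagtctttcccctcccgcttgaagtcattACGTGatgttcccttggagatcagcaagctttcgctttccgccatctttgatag
The core was matched 1 time in the Loxl4 window, 1 time in that of Plod1 and 4 times in that of Plod3, of which the matches at -104 and -90 from the start were closest together. Of 32851 promoter windows of this length, 38.6% held a match. TATAAA on either strand was matched 1 time in the Plod1 window and not in the other windows shown, and in 12.4% of all windows. The windows held 27 (Loxl4), 16 (Plod1) and 17 (Plod3) CG dinucleotides, against a median of 6 over all windows. Loxl4 had the most of them. These matches are descriptions of letters, not of bound sites.

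After filtering, 34947 cells in 29 clusters remained, 6510 to 10399 a library, with a median of 6657 to 11600 unique molecular identifiers (UMIs) per cell. Pairs of libraries shared 19 to 87 barcodes. The libraries went against the label of mixed sex. Cells with at least 2 UMIs of Xist and none of 4 Y-linked genes made up 54.2% of the 12 dpa library, where 0 male cells were found. Male cells by the opposite rule made up 47.0% to 77.8% of the other libraries, which held 0 or 1 female cells. Each 12 dpa value below thus compares female with mostly male cells, and the effects of sex and of day cannot be told apart. Whether a library or a label was exchanged cannot be told from the files either, so 12 dpa stands throughout for the library so labelled. Every group is 1 library, so no test was possible, and all intervals (95%, exact Poisson for sums and Clopper-Pearson for shares) cover counting error only.

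The class described most closely was fibroblast-like. All 10 fibroblast markers had UMIs in it in every library and summed to 7646 to 23143 CPM (CPM is the summed UMI count of a gene scaled to the same total in every sum). This sum did not set every cluster of the class apart from tenocyte-like cells. In the unamputated library it was 17189 CPM in cluster 1, 13654 in cluster 10 and 7175 in cluster 9, against 7757 and 8798 CPM in tenocyte-like clusters 4 and 15 and 16351 CPM in cluster 17, which was left unnamed. None of the 10 leading genes of clusters 1 and 9 was a fibroblast marker, so the name of cluster 9 in particular rests on markers it shares with tenocyte-like cells. The fibroblast-like class held 1027 cells unamputated, 983 at 12 dpa, then 1488 at 17 dpa and 2118 at 28 dpa. The class was made of cluster 1 (led by C4b, Pi16 and Gdf10), cluster 9 (Spock3, Prss35 and Crabp1) and cluster 10 (Wnt2, Prelp and Mfap5), and their mix differed between libraries. Cluster 1 was 48.2% of the class unamputated, 10.8% at 12 dpa, then 78.1% at 17 dpa and 56.3% at 28 dpa. Cluster 9 was 43.2%, 79.5%, 8.06% and 0.803% in that order, and cluster 10 was 8.57%, 9.77%, 13.8% and 42.9%. Values inside clusters are therefore given beside the main class values. The members and 40 related genes took no part in the clustering.

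Lox, the founding collagen and elastin oxidase, had the largest difference at 28 dpa of the 8 members within fibroblast-like cells. Its level there was 467.9 CPM (459.1 to 476.9) unamputated, 509.9 CPM (498.6 to 521.4) at 12 dpa, then 305.5 CPM (297.8 to 313.4) at 17 dpa and 161.8 CPM (156.5 to 167.2) at 28 dpa. The unamputated and 12 dpa libraries were high, 17 dpa was between and 28 dpa was low, with no overlap of counting intervals. The log2 ratio to unamputated (1 CPM added to both) was 0.12 (0.08 to 0.17), -0.61 (-0.66 to -0.57) and -1.53 (-1.58 to -1.47) at 12, 17 and 28 dpa.

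The 28 dpa difference in Lox was present inside clusters 1 and 10, the clusters of the class with at least 50 cells in both libraries. Cluster 10 held only 88 cells unamputated. In cluster 1, Lox was 310.4 CPM unamputated, 246.1 at 12 dpa, then 279.1 at 17 dpa and 135.4 at 28 dpa, a log2 ratio at 28 dpa of -1.19 (-1.29 to -1.10). In cluster 10 it was 447.9, 359.8, 337.0 and 182.6 CPM, a log2 ratio at 28 dpa of -1.29 (-1.40 to -1.18). Cluster 9 had the highest Lox of the class, 602.6 CPM unamputated, 552.7 at 12 dpa and 481.3 at 17 dpa, with only 17 cells at 28 dpa. At 17 dpa the differences inside clusters 1, 10 and 9 were smaller than that of the class, at log2 ratios of -0.15, -0.41 and -0.32.

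Loxl1, the isoform best known for elastic fibres, kept within 1.5-fold of its unamputated level. It was 408.8 CPM (400.6 to 417.3) unamputated, 435.2 (424.8 to 445.9) at 12 dpa, then 553.4 (543.0 to 564.0) at 17 dpa and 487.6 (478.4 to 496.9) at 28 dpa in fibroblast-like cells. The 17 dpa library was highest, with a log2 ratio of 0.44 (0.40 to 0.48). In cluster 1 the log2 ratios at 12, 17 and 28 dpa were 0.20, 0.33 and 0.18, and in cluster 10 they were 0.17, 0.01 and 0.05.

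Loxl2, which acts on collagen IV of basement membranes as well as on fibrillar collagen, was the only member of at least 5 CPM more than 1.5-fold higher in fibroblast-like cells in any of the 3 comparisons. It was 444.4 CPM (435.8 to 453.2) unamputated, 403.6 (393.6 to 413.9) at 12 dpa, then 463.8 (454.3 to 473.5) at 17 dpa and lastly 745.5 (734.1 to 757.0) at 28 dpa. The first 3 libraries lay close together and 28 dpa stood above them, with a log2 ratio of 0.74 (0.71 to 0.78). Inside clusters this was smaller. The log2 ratio at 28 dpa was 0.15 (0.08 to 0.22) in cluster 1, where levels were 307.7 CPM unamputated and 341.2 CPM at 28 dpa. It was 0.48 (0.41 to 0.55) in cluster 10, where Loxl2 was 758.6, 395.9, 825.4 and 1058 CPM in library order. Cluster 10, the highest of the 3 in Loxl2 in all libraries but 12 dpa, was also the cluster with 42.9% of the class at 28 dpa against 8.57% unamputated.

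Loxl3 and Loxl4 were minor members. Loxl3 was 28.0 CPM (25.8 to 30.2) unamputated, 35.3 (32.4 to 38.4) at 12 dpa, then 28.1 (25.8 to 30.6) at 17 dpa and 28.7 (26.5 to 31.1) at 28 dpa, so 12 dpa was the only library apart from the rest. In cluster 10 its log2 ratio at 28 dpa was 0.77 (0.31 to 1.26). Loxl4 stayed below the 5 CPM minimum, at 1.6, 1.6, 2.7 and 2.9 CPM from 25 to 63 UMIs a library, with overlapping intervals between neighbouring levels. In cluster 1 it was 0.976 CPM unamputated and 5.18 CPM at 28 dpa.

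Plod1 and Plod3, the hydroxylases of the collagen helix, differed little in fibroblast-like cells. Plod1 was 105.5 CPM (101.4 to 109.9), 107.5 (102.3 to 112.8), 92.9 (88.7 to 97.3) and 92.6 (88.6 to 96.7) in the unamputated, 12, 17 and 28 dpa libraries. Plod3, which also carries glycosyltransferase activity, was 44.1 CPM (41.4 to 46.9), 49.2 (45.7 to 52.8), 39.2 (36.4 to 42.0) and 37.0 (34.5 to 39.7). For both genes 17 and 28 dpa lay below the first pair, and no log2 ratio of the class passed 0.25 in size. At 28 dpa the log2 ratios of Plod1 and Plod3 were -0.30 and -0.38 inside cluster 1 and -0.09 and -0.42 inside cluster 10.

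Plod2, the telopeptide hydroxylase, was lower in both later libraries. It was 182.4 CPM (176.8 to 188.0) unamputated, 153.8 (147.6 to 160.1) at 12 dpa, then 90.2 (86.1 to 94.6) at 17 dpa and lastly 74.2 (70.7 to 77.9) at 28 dpa. The 4 intervals did not overlap, and each later library was lower than the one before. The log2 ratios were -0.24 (-0.32 to -0.17), -1.01 (-1.09 to -0.93) and -1.28 (-1.37 to -1.20). Inside cluster 1 they were -0.25, -0.45 and -0.95, and inside cluster 10 -0.32, -0.47 and -0.66, so none passed 2-fold within a cluster. Cluster 9, high in Plod2 with 254.9 CPM unamputated and 164.7 CPM at 12 dpa, was the cluster nearly missing from the class at 28 dpa.

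**Figure D1:**
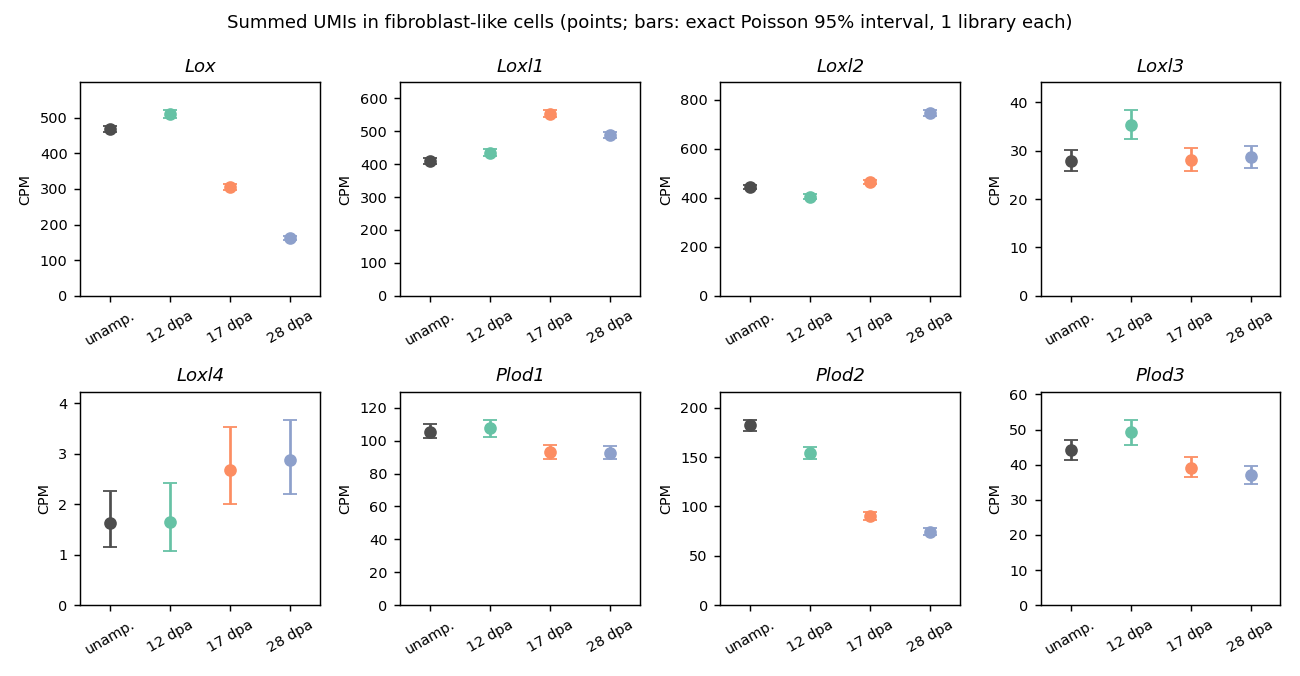
Level of each member in fibroblast-like cells (vertical axis, CPM of summed UMIs, from 0) in the 4 libraries (horizontal axis), with exact Poisson 95% intervals and 1 library per point. Lox goes from 467.9 to 161.8 CPM and Plod2 from 182.4 to 74.2 CPM between unamputated and 28 dpa, while Loxl2 goes from 444.4 to 745.5 CPM.

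Of the 7 members with at least 5 CPM in either library, 0 were past 2-fold at 12 dpa, where 1.0% of all genes of that level were 2-fold higher and 2.01% 2-fold lower. At 17 dpa 1 of 7 was 2-fold lower (Plod2) and 0 higher, beside 2.75% and 1.42% of all genes. At 28 dpa 2 of 7 were 2-fold lower (Lox and Plod2) and 0 higher, beside 8.14% and 3.88%. The call of Plod2 at 17 dpa stood only just past the threshold, and it held in 1 of 12 alternative settings. That of Plod2 at 28 dpa held in 6 of 12 and that of Lox at 28 dpa in 11 of 12. With no doublets removed 0 members passed at 28 dpa, and Lox stood at -0.93. The median log2 ratio of the 7 members was 0.09, -0.17 and -0.19 at 12, 17 and 28 dpa, against -0.03, -0.02 and -0.10 over all genes.

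Marker sums of other classes also differed between libraries inside the fibroblast-like class. The 8 tenocyte markers summed to 627.0, 536.5, 483.2 and 399.9 CPM in library order, all with UMIs. The 8 osteoblast markers summed to 315.7, 388.8, 132.1 and 89.5 CPM, with Dmp1 at 0 at 12 dpa. The 7 smooth muscle markers summed to 332.6, 652.8, 94.1 and 127.6 CPM, and the 7 chondrocyte markers to 96.8, 102.0, 20.1 and 7.9 CPM, with Cnmd or Col2a1 at 0. Other lists were higher at 28 dpa. The 6 basal keratinocyte markers summed to 35.0, 56.0, 53.8 and 110.3 CPM, the 7 pericyte markers to 57.0, 67.9, 102.2 and 127.7 CPM and the 12 macrophage or monocyte markers to 23.4, 22.6, 33.8 and 54.1 CPM. The 8 neutrophil markers summed to 47.5, 9.15, 53.9 and 12.5 CPM, with Ly6g at 0 in all but the 17 dpa library, and the 9 vascular endothelial markers to 9.5, 23.1, 8.2 and 13.5 CPM. Inside cluster 1, between unamputated and 28 dpa, the osteoblast sum was 274.7 and 121.1 CPM, the chondrocyte sum 13.1 and 4.4, the tenocyte sum 540.4 and 469.2, the smooth muscle sum 31.0 and 86.9, the basal keratinocyte sum 41.7 and 127.7, the pericyte sum 59.3 and 100.6 and the neutrophil sum 47.6 and 5.92. Inside cluster 10 the osteoblast sum was 157.8 and 65.0 CPM, the chondrocyte sum 33.8 and 9.85, the tenocyte sum 367.9 and 343.9, the smooth muscle sum 62.4 and 158.8, the pericyte sum 54.9 and 148.0, the macrophage or monocyte sum 18.5 and 55.7, the basal keratinocyte sum 31.2 and 96.8 and the neutrophil sum 46.6 and 17.4. Their part in the differences of Lox and Plod2 was not tested.

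Detection per cell went with the levels. With every cell thinned to 2000 UMIs, Lox was found in 49.6% (46.5 to 52.7) of cells unamputated, 50.1% (46.9 to 53.3) at 12 dpa, then 31.3% (29.0 to 33.8) at 17 dpa and 20.1% (18.4 to 21.9) at 28 dpa. Thinning left out 13, 13, 30 and 43 shallower cells, and the unthinned shares were 88.0%, 81.1%, 68.1% and 49.4%. T or NK-like cells, which should lack the gene, gave thinned shares of 0.377% to 2.19%. Their median depth before thinning was 2465 to 4614 UMIs, against 9052.5 to 21033 in fibroblast-like cells. Thinned shares of Plod2 were 24.5%, 23.1%, 14.95% and 12.7%, against 0.730% to 2.02% in T or NK-like cells. Thinned shares of Loxl1 were 49.6% unamputated and 57.5% at 28 dpa, and those of Loxl2 46.4% and 54.6%.

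The make-up of the lysyl oxidase pool differed at 28 dpa more than its size. The 5 genes together were 1351, 1386, 1353 and 1426.5 CPM in fibroblast-like cells. A 3′ library counts 1 UMI per molecule, so these shares of molecules are not scaled by gene length. Lox was 34.6% (34.1 to 35.2) of lysyl oxidase UMIs unamputated, 36.8% at 12 dpa, then 22.6% at 17 dpa and 11.3% at 28 dpa. Loxl2 was 32.9% (32.4 to 33.4), 29.1%, 34.3% and 52.3% (51.7 to 52.8). Loxl1 was 30.3%, 31.4%, 40.9% and 34.2%. The share of Lox was also lower at 28 dpa inside cluster 1 (27.4% to 12.8%) and cluster 10 (27.1% to 10.6%). That of Loxl2 went from 27.1% to 32.3% and from 45.9% to 61.7%. In cluster 1 the leading gene was Loxl1, not Loxl2, with 4469 against 2838 UMIs unamputated and 5199 against 3226 at 28 dpa. The share of Loxl1 in cluster 1 was also higher at 28 dpa.

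The lysyl hydroxylase pool of the class was smaller at the later days, at 332.0, 310.4, 222.3 and 203.9 CPM. At 17 and 28 dpa the differences in Plod2, its largest part unamputated, were smaller inside clusters 1 and 10 than in the class. Plod2 was 54.9% (53.8 to 56.1) of the class pool unamputated, 49.5% at 12 dpa, then 40.6% at 17 dpa and 36.4% (35.0 to 37.8) at 28 dpa. Plod1 was 31.8%, 34.6%, 41.8% and 45.4%, so the leading hydroxylase by UMIs was Plod2 in the first pair of libraries and Plod1 in the 28 dpa library. At 17 dpa the intervals of the 2 shares overlapped. Inside cluster 1 they were closer from the start, with Plod2 at 45.3%, 39.8%, 37.8% and 34.7% and Plod1 at 40.2%, 41.6%, 45.2% and 48.7%. Inside cluster 10 Plod2 was 44.8%, 45.1%, 41.7% and 37.1% and Plod1 35.8%, 33.0%, 36.8% and 44.0%. Cluster 9, 43.2% of the class unamputated and 0.803% at 28 dpa, had the highest Plod2 share, 60.9% unamputated, 50.6% at 12 dpa and 53.5% at 17 dpa.

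**Figure D2:**
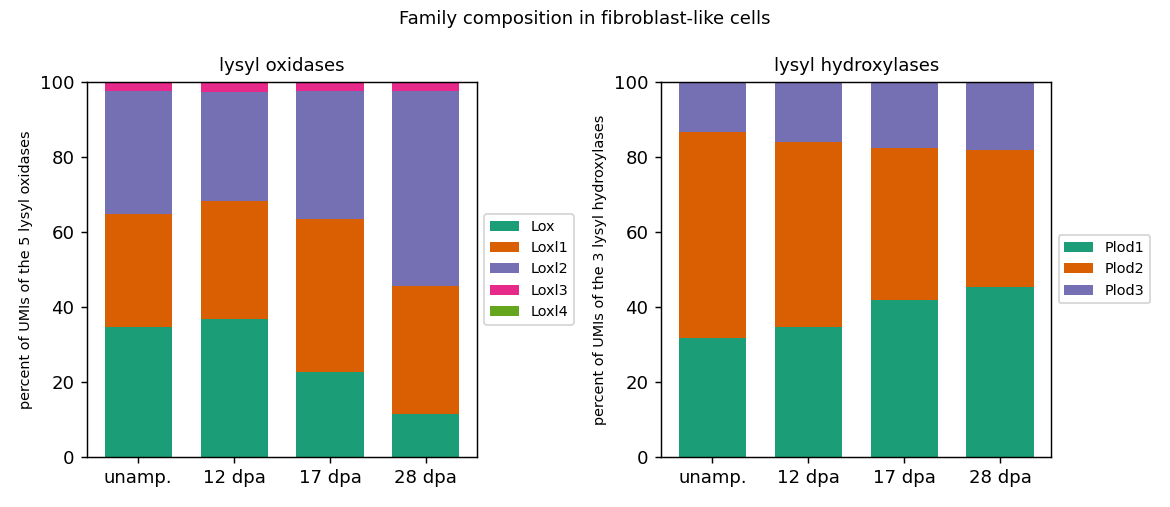
Share of each gene (vertical axis, percent) in all UMIs of the 5 lysyl oxidases (left) and of the 3 lysyl hydroxylases (right) in fibroblast-like cells of the 4 libraries (horizontal axis). Lox takes 34.6% unamputated and 11.3% at 28 dpa, and Loxl2 takes 52.3% at 28 dpa.

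Col1a1, the chain taken here as the measure of substrate, was low in the same libraries as Lox. It was 23327, 22966, 13934 and 6966 CPM in fibroblast-like cells. Lox per 1000 Col1a1 UMIs was 20.1 (19.7 to 20.4) unamputated, 22.2 (21.7 to 22.7) at 12 dpa, then 21.9 (21.4 to 22.5) at 17 dpa and 23.2 (22.5 to 24.0) at 28 dpa, so this ratio stayed within 1.5-fold. Lox per UMI of Col1a2 and of Col5a1 also stayed within 1.5-fold over the 4 libraries, with its lowest value at 28 dpa. Lox per UMI of Col3a1, of Col5a2 and of Eln, the other substrates counted here, did not. Col3a1 had more UMIs than Col1a1 in every library but 12 dpa and was highest at 17 dpa, where Lox was below unamputated. Loxl1 per 1000 Col1a1 UMIs was 17.5, 19.0, 39.7 and 70.0, and Loxl2 was 19.1, 17.6, 33.3 and 107.0, both highest at 28 dpa. Plod2 per 1000 Col1a1 UMIs was 7.82, 6.70, 6.48 and 10.7. Inside clusters these differences were of other sizes. From unamputated to 28 dpa, Loxl1 went from 34.8 to 83.0 in cluster 1 and from 17.8 to 61.5 in cluster 10, Loxl2 from 22.1 to 51.5 and from 31.5 to 147.1, and Plod2 from 7.52 to 8.10 and from 5.90 to 12.4. In cluster 1 the Lox ratio was 22.3, 21.4, 21.0 and 20.4, and in cluster 10 it was 18.6, 27.0, 25.1 and 25.4. In osteoblast-like cells it was 13.7 (13.1 to 14.4) unamputated, 13.9 (13.4 to 14.5) at 17 dpa and 13.3 (12.4 to 14.2) at 28 dpa. In tenocyte-like cells it was 17.1, 24.8, 26.3 and 13.2, from clusters that differed in direction. It was 21.7, 25.3, 31.5 and 10.8 in cluster 4, lowest at 28 dpa, and 10.3, 11.9, 19.9 and 32.2 in cluster 15, highest at 28 dpa. A ratio within a library shows unequal change only, and does not show that either gene was steady.

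**Figure D3:**
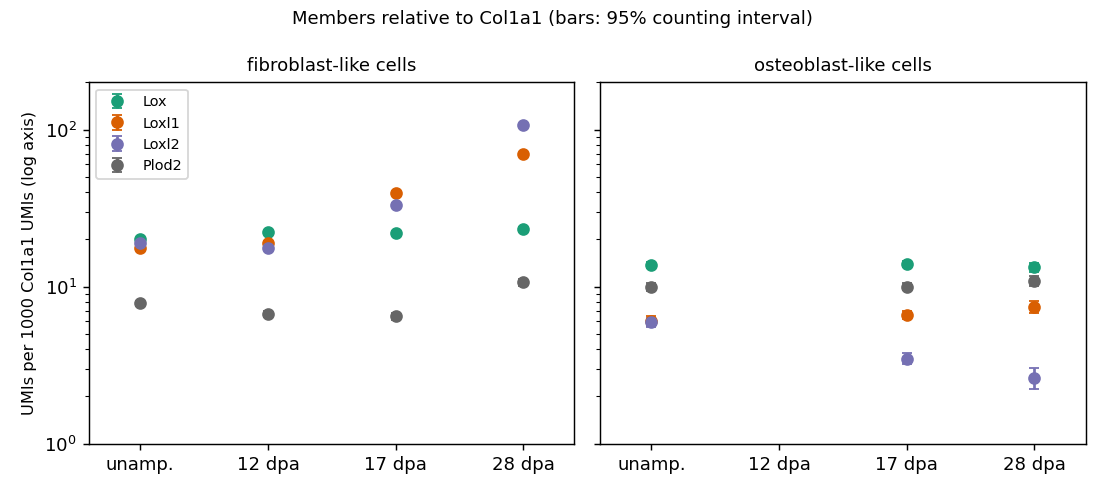
UMIs of Lox, Loxl1, Loxl2 and Plod2 per 1000 UMIs of Col1a1 (vertical axis, log scale) in the 4 libraries (horizontal axis), for fibroblast-like cells on the left and osteoblast-like cells on the right, with 95% counting intervals. The fibroblast-like Lox points lie between 20.1 and 23.2, while Loxl2 reaches 107.0 at 28 dpa.

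Other stromal and mural classes showed the family in other proportions. Tenocyte-like cells were made of clusters 4 and 15, and cluster 4 was 48.9%, 95.4%, 35.6% and 65.2% of them in library order. They had Lox at 492.4, 549.8, 474.9 and 221.7 CPM with 28 dpa the low library and a log2 ratio of -1.15 (-1.24 to -1.06). Of 7 members of at least 5 CPM, Lox was the only 1 past 2-fold lower in these cells at 28 dpa, beside 4.79% of all genes. In cluster 4, led by Scx, Thbs4 and Tnmd, Lox was 634.8, 558.5, 620.6 and 209.8 CPM, a log2 ratio at 28 dpa of -1.59 (-1.70 to -1.49), beside 5.13% of genes 2-fold lower. Between the same libraries the smooth muscle marker sum of cluster 4 was 613.8 and 170.5 CPM, the tenocyte sum 1398 and 3845, the fibroblast sum 7757 and 14756 and the chondrocyte sum 335.6 and 591.5, and their part in the Lox difference was not tested. In cluster 15, led by Chad, Omd and Comp, it was 289.2 CPM unamputated and 260.9 CPM at 28 dpa, with an interval of the log2 ratio of -0.32 to 0.02. Plod2 in tenocyte-like cells was 216.6, 162.0, 162.8 and 247.8 CPM. Inside cluster 4 it was 289.4, 164.3, 220.5 and 287.6 CPM and inside cluster 15 it was 112.6, 96.3, 104.4 and 116.6 CPM, so the 28 dpa level lay near the unamputated level in both.

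Osteoblast-like cells had the highest Plod2 among the pooled classes of the unamputated library, below that of tenocyte-like cluster 4, and their Lox at 28 dpa lay within counting error of unamputated. They numbered 230 unamputated, 376 at 17 dpa and 366 at 28 dpa, and the 14 cells at 12 dpa were not compared. Lox was 355.4 CPM (339.6 to 371.8), 448.3 and 342.1 (320.3 to 365.0) at the 3 times, with overlap between unamputated and 28 dpa. Plod2 was 257.6, 322.4 and 279.1 CPM. Loxl2 was 153.3 CPM (143.0 to 164.2), 112.1 and 67.1 (57.6 to 77.6), a log2 ratio at 28 dpa of -1.18 (-1.42 to -0.95). It was the only 1 of 8 members past 2-fold lower there, beside 10.3% of all genes, so this count lies near the background. Between the same libraries the osteoblast marker sum of these cells was 10322 and 24787 CPM, the smooth muscle sum 345.3 and 64.5, the neutrophil sum 547.4 and 5.22, the tenocyte sum 237.3 and 1109 and the basal keratinocyte sum 28.9 and 190.8. Their part in the Loxl2 difference was not tested.

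By UMIs the main lysyl oxidase was Loxl2 in pericyte-like cells and Lox in smooth muscle-like cells. In pericyte-like cells Loxl2 was 225.5, 228.7, 204.6 and 252.3 CPM, 64.2% to 68.4% of their lysyl oxidase UMIs, and Lox was 56.9 to 67.7 CPM. Loxl1 in these cells was 15.8 CPM unamputated, 31.6 at 12 dpa, then 13.3 at 17 dpa and 27.0 at 28 dpa, high in 2 libraries and low in 2. In smooth muscle-like cells Loxl2 was 124.0, 133.7, 70.7 and 56.0 CPM, with a log2 ratio at 28 dpa of -1.13 (-1.40 to -0.88). It was the only 1 of 7 members past 2-fold lower there, beside 5.7% of all genes, while all 7 were below 0 with a median of -0.63 against -0.14 over all genes.

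**Figure D4:**
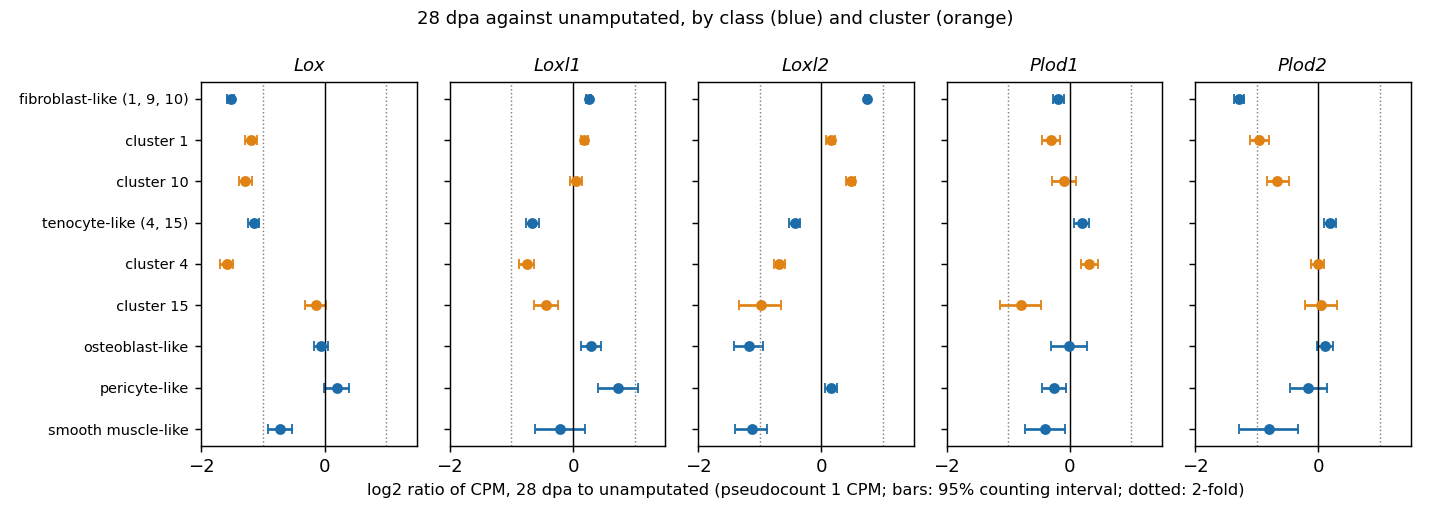
Log2 ratio of CPM at 28 dpa to unamputated (horizontal axis) for 5 members in 5 cell classes (blue) and 4 of their clusters (orange), with 95% counting intervals and 2-fold marked by dotted lines. Lox lies past 2-fold lower in clusters 1, 10 and 4 and near 0 in osteoblast-like cells, and Loxl2 is above 0 in fibroblast-like and below 0 in osteoblast-like and smooth muscle-like cells.

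Inside the fibroblast-like clusters the counts were as low as in the class. In cluster 1 at 28 dpa, 1 of 8 members was 2-fold lower (Lox) beside 4.61% of all genes, and 1 was 2-fold higher (Loxl4, from 0.976 to 5.18 CPM) beside 2.19%. In cluster 10 at 28 dpa, 1 of 7 was 2-fold lower (Lox) beside 5.85%.

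Outside the stromal and mural classes Lox and Loxl1 were low, with highest values above those of the background class. Some other members were well above the background in some of these classes. Lox and Loxl1 were at most 15.3 and 23.4 CPM in every immune, epidermal, endothelial and Schwann-like class of at least 50 cells. T or NK-like cells, the background class, gave at most 9.5 CPM of Lox and 8.4 CPM of Loxl1, from no more than 6 UMIs each. Loxl2 was 74.6 to 108.5 CPM in Schwann-like cells, where Loxl3 was 19.8 to 26.9 CPM, and 150.9 CPM (unamputated) and 121.6 CPM (12 dpa) in lymphatic endothelial-like cells. In vascular endothelial-like cells it was only 4.6 to 11.1 CPM.

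Plod1 was highest in lymphatic endothelial-like cells, at 179.4 CPM unamputated and 223.5 CPM at 12 dpa, with fewer than 50 cells in the later libraries. In the unamputated library Schwann-like cells followed at 146.7 CPM and tenocyte-like cells at 128.9 CPM, whose intervals overlapped. Vascular endothelial-like cells at 108.3 CPM and fibroblast-like cells at 105.5 CPM also did not differ beyond counting error. Plod1 was 50.9 to 71.9 CPM in macrophage or monocyte-like cells, where Plod2 was 0.650 to 1.75 CPM. Plod3 was the most even member. The 5 highest classes of the unamputated library, led by osteoclast-like cells at 55.2 CPM and Schwann-like cells at 54.4 CPM, each overlapped the next.

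Loxl4 was highest in the unamputated and 17 dpa libraries in cluster 17, a cluster led by Hcn4, Msln and Krt19 that was left unnamed. Its level there was 26.3 CPM unamputated, 14.9 at 17 dpa and 7.8 at 28 dpa from 42, 59 and 16 UMIs. Osteoblast-like cells followed at 7.1 CPM unamputated, 5.5 at 17 dpa and 8.2 at 28 dpa. Smooth muscle-like cells held 0 Loxl4 UMIs in all 4 libraries. At 28 dpa the intervals of cluster 17 (4.5 to 12.7) and osteoblast-like cells (5.1 to 12.4) overlapped.

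**Figure D5:**
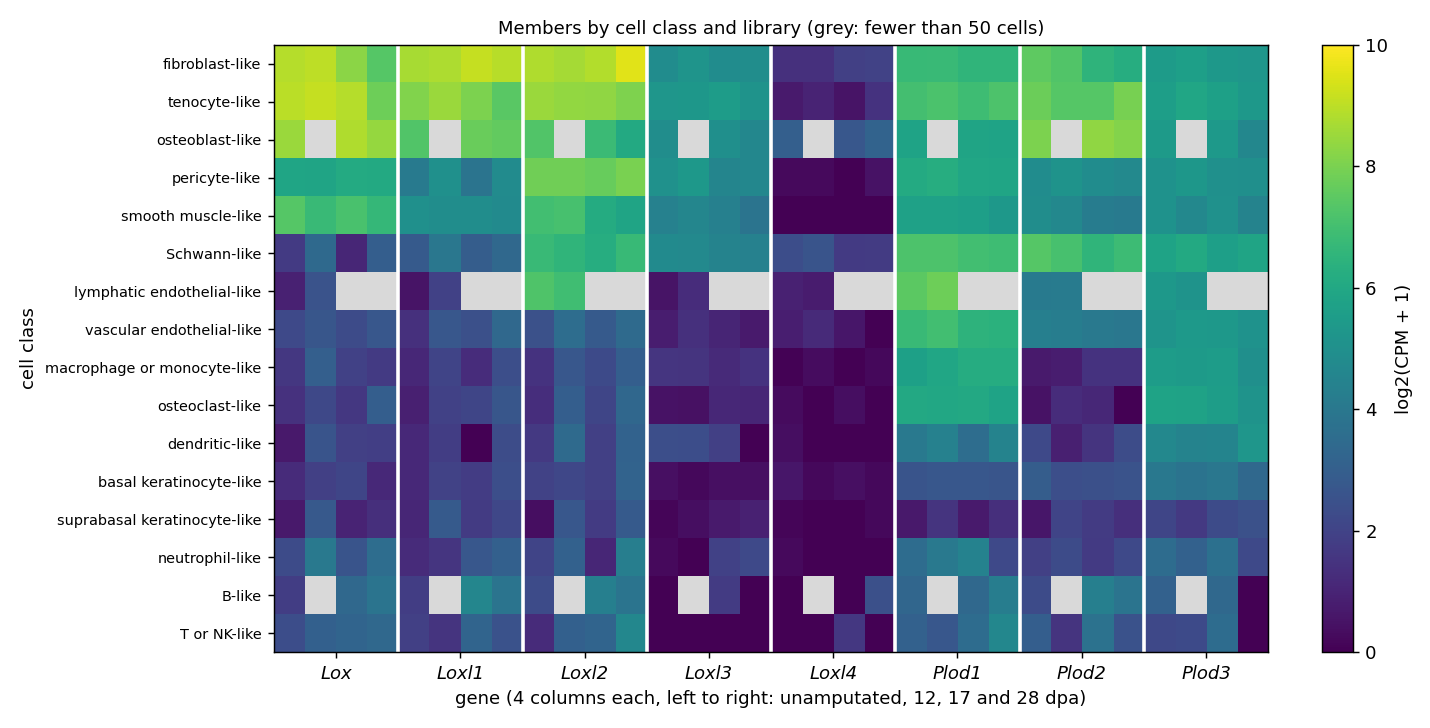
Level of the 8 members as log2(CPM + 1) (colour) in 16 cell classes (rows) and 4 libraries (columns within each gene), with classes of fewer than 50 cells in grey. Loxl2 is 225.5 CPM in pericyte-like and 150.9 CPM in lymphatic endothelial-like cells of the unamputated library, where Lox is 57.4 and 0.904 CPM.

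Genes most like each member were sought over 60 sums of a class in a library, which share cells' libraries and depth, among 12480 genes. For Lox the highest Pearson r were with Ccdc80 (0.961), Aspn (0.951) and Lrrc17 (0.95), and for Loxl1 with Ccdc80 (0.961), Aspn (0.935) and Bicc1 (0.933). Lox and Loxl1 were like each other at r = 0.931. Loxl2 was closest to Cacna2d1 (0.936), C1qtnf6 (0.930) and Col5a2 (0.919), and Loxl3 to Efemp2 (0.924), Col6a1 (0.909) and Rcn3 (0.909). Plod2 was closest to Sparc (0.945), Kdelr3 (0.939) and Tmem263 (0.933). Plod1 was closest to Arfgap3 (0.919), Rhoc (0.912) and Layn (0.895), and Plod3 to Fads1 (0.869), Tbc1d16 (0.858) and Ltbr (0.837). Loxl4, itself below 20 CPM in named classes, was closest to Dok5 (0.817), Pcdh9 (0.778) and Nog (0.756). Plod2 was nearer to Loxl2 (r = 0.842) than to Plod1 (0.579) or Plod3 (0.420), whereas Plod1 and Plod3 stood at 0.778. These are descriptions of class patterns.

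Other genes of collagen processing were counted in the same way, and their difference from the members was not tested. Of a list of 40 such genes, 38 had at least 5 CPM at 12 dpa, and 0 were 2-fold higher and 1 lower in fibroblast-like cells. At 17 dpa 2 of 39 were higher and 4 lower, and at 28 dpa 4 of 39 were higher and 11 lower, beside the shares of all genes given above. The medians were 0.06, -0.19 and -0.49. Inside clusters fewer genes were past 2-fold at 28 dpa in all. In cluster 1, 1 of 38 was higher and 5 lower (median -0.26), beside 2.19% and 4.61% of all genes (median -0.13). In cluster 10, 4 of 37 were higher and 7 lower (median -0.34), beside 4.74% and 5.85% of all genes (median -0.04).

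Among the substrates, 4 of 6 were 2-fold lower at 28 dpa, against 2 of 6 inside cluster 1 and 3 of 6 inside cluster 10. The shares of all genes 2-fold lower were 8.14% in the class, 4.61% in cluster 1 and 5.85% in cluster 10. Col1a1 had a log2 ratio of -1.74, Col1a2 of -1.15 and Col5a1 of -1.17. Eln, the elastin gene, was 357.4, 194.9, 690.6 and 133.5 CPM, highest at 17 dpa and lowest at 28 dpa. The 17 dpa log2 ratio of Eln was 0.95 in the class but 0.48 in cluster 1, 0.06 in cluster 10 and -0.57 in cluster 9, so no cluster held the class difference. Col3a1, the other major fibrillar collagen of skin, was 24540, 18704.5, 27442 and 16797 CPM and stayed within 2-fold.

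Among the 6 extracellular partners of lysyl oxidases, 3 were 2-fold lower and 1 higher at 28 dpa, beside 8.14% and 3.88% of all genes. Postn, a matricellular protein that helps activate Lox, was 6030, 6571, 3394 and 1499 CPM. Fmod, a collagen-binding proteoglycan, was 370.6, 529.6, 134.5 and 85.0 CPM, and Thbs1 was 435.8, 427.8, 136.4 and 88.9 CPM. Fn1, the fibronectin gene, went the other way at 2979, 2139, 4488 and 7273 CPM. Inside cluster 1 only 1 of the 6 was 2-fold lower at 28 dpa and 0 were higher, beside 4.61% and 2.19% of all genes. The log2 ratios there were -1.09 for Postn, -0.70 for Fmod, -0.90 for Thbs1 and 0.75 for Fn1. Inside cluster 10, 2 were lower and 1 higher, beside 5.85% and 4.74% of all genes. The log2 ratios in cluster 10 were -2.23 for Postn, -0.58 for Fmod, -2.47 for Thbs1 and 1.09 for Fn1. Fmod, at -2.11 in the class, was also a leading gene of tenocyte-like cluster 4.

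Of the proteinases and enhancers, Tll1, which cleaves propeptides and pro-lysyl oxidase, was 29.3, 32.3, 12.6 and 3.3 CPM, and Adamts3 was 45.5, 27.3, 30.7 and 5.7 CPM. Bmp1, the related and main such proteinase, had a log2 ratio of -0.02 at 28 dpa. Pcolce2, an enhancer of propeptide cleavage, was 52.3, 23.8, 253.3 and 565.4 CPM. It is a leading gene of cluster 1, and it was also higher at 28 dpa inside cluster 1 (116.9 to 790.0 CPM) and cluster 10 (25.9 to 397.5 CPM). Atox1, the copper chaperone, was 194.6, 262.3, 289.9 and 532.1 CPM, while the copper transporters Atp7a and Slc31a1 had log2 ratios of -0.59 and -0.48 at 28 dpa. Pxdn, the peroxidase that makes sulfilimine bonds in collagen IV, was 149.6, 167.9, 124.9 and 63.4 CPM. At 28 dpa the log2 ratio of Atox1 was 1.45 in the class, 0.86 in cluster 1 and 1.51 in cluster 10, and that of Pxdn was -1.23, -0.73 and -1.37, so neither was past 2-fold inside cluster 1. Adamts3 was -2.75 in cluster 1 and -1.77 in cluster 10, and Tll1, under 5 CPM in cluster 10, was -2.23 in cluster 1.

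The 15 genes of procollagen modification in the endoplasmic reticulum, the compartment of the Plod enzymes, held 1 gene 2-fold higher and 1 lower at 28 dpa, both below 20 CPM (Colgalt2, a collagen galactosyltransferase, at 1.36 and P3h2, a prolyl 3-hydroxylase, at -1.69), and 12 of 15 were below 0 with a median of -0.31. Serpinh1, the collagen chaperone, had a log2 ratio of -0.55, P4ha1 of -0.50 and Ppib of 0.14. Inside clusters 1 and 10, 0 of the 14 measured genes of this list were 2-fold lower, and 0 and 1 were 2-fold higher. At 28 dpa, 3.88% of all genes were 2-fold higher and 8.14% lower in the class. These shares were 2.19% and 4.61% in cluster 1 and 4.74% and 5.85% in cluster 10.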

How the data were processed

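The authors deposited 4 matrices of raw counts (UMIs for each gene in each barcode), made with Cell Ranger 7.1.0 against mm10, per the submitters' processing notes. The cell-calling settings and the annotation are not given in the sources used here. Totals were 92313847 to 197140774 UMIs over 8813 to 16045 barcodes a library. The members and gene lists were chosen with earlier results of these data known.

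Cells of at least 500 genes and 1000 UMIs with at most 10% mitochondrial UMIs were kept, after removal of the highest Scrublet scores at 0.8% per 1000 barcodes (7.05% to 12.8% of barcodes; the automatic threshold marked 2.03% to 4.24%). Clustering used scanpy 1.11.5: 10000 UMIs per cell, 2000 variable genes without members, the related list, sex-linked marker and mitochondrial genes, 30 components, 15 neighbours and Leiden resolution 1. A class needed 3 markers each found in 25% of a cluster's cells; clusters whose top 10 genes by fold had more markers from elsewhere than of their own got no name. The scoring was settled with the clusters already in view.

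UMIs were summed per class and library and expressed as CPM. Ratios to unamputated carry a pseudocount of 1 CPM, and a gene counts as past 2-fold from at least 5 CPM in either library. With 1 library a group no p-value was computed. Ratios and intervals were tested on simulated counts with known changes. Named genes were all members, list genes past 2-fold with at least 20 CPM, Col1a1, Col3a1 and Eln, and the 3 genes most like each member. List genes named beyond this rule (Bmp1, Atp7a, Slc31a1, Serpinh1, P4ha1, Ppib, Colgalt2 and P3h2) were chosen after their values were seen. Alternatives changed the cell filter, doublets, resolution, class, averaging, scaling, pseudocount, depth and thresholds.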

Additional observations from a re-analysis of the deposited data

Results flagged for a closer look

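In all, 3 differences between cell classes stood out because a member was at least 1.5-fold higher in one class and at least 1.5-fold lower in another at the same time, with counting intervals clear of 0 and at least 20 CPM in either library. None of these differences was tested, since each class had 1 library a group. Of all genes at 28 dpa, 11.3% were at least 1.5-fold higher in fibroblast-like and 7.17% in pericyte-like cells. Those at least 1.5-fold lower were 28.7% in osteoblast-like, 18.6% in smooth muscle-like and 15.6% in tenocyte-like cells. Loxl2 at 28 dpa had a log2 ratio to unamputated of 0.74 in fibroblast-like and of -1.18 in osteoblast-like cells, a difference of 1.93. Against smooth muscle-like cells, at -1.13, the difference was 1.88. Both rest on the class value of Loxl2, which inside fibroblast-like clusters 1 and 10 was 0.15 and 0.48, each under 1.5-fold, so neither cluster alone would stand out in this way. Loxl1 at 28 dpa had a log2 ratio of 0.73 in pericyte-like and of -0.66 in tenocyte-like cells, a difference of 1.39. Inside tenocyte-like clusters 4 and 15 it was -0.75 and -0.43, the latter under 1.5-fold, and cluster 4 was 48.9% of the class unamputated and 65.2% at 28 dpa. In pericyte-like cells Loxl1 was also higher at 12 dpa (0.96) but not at 17 dpa (-0.23). Pericyte-like cells were made of clusters 0 and 23, whose mix also differed between libraries. Cluster 23 held 183, 159, 108 and 62 cells in library order, beside 892, 519, 756 and 993 in cluster 0. Loxl1 was not compared inside these clusters.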

How the results depend on the processing

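No paired analysis was possible because each group held 1 library. In fibroblast-like cells the signs of the 28 dpa ratios of Lox, Plod2 and Loxl2 held in 12 of 12 alternatives, over ranges of -1.66 to -0.93, -1.30 to -0.58 and 0.39 to 1.08. The smallest differences of Lox and Plod2 came with no doublets removed, where the class held 781 unamputated and 470 12 dpa cells, and that of Loxl2 with clusters 1 and 10 weighted equally. With no doublets removed and under the stricter filter, the cluster led by Spock3, Prss35 and Crabp1, the counterpart by leading genes of cluster 9 with its high Lox and Plod2, stayed unnamed and so was not in the class. At resolution 2 a cluster with these 3 among its leading genes was tenocyte-like, and another was fibroblast-like. The equal weighting and the pool of all stromal clusters were chosen after seeing the data.

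The number of members past 2-fold at 17 dpa was 0 in place of 1 under the looser and stricter cell filters, no doublet removal, resolution 2, pooling with tenocyte-like cells, averaging over cells, removal of the median shift, a pseudocount of 5 CPM, thinning, all stromal clusters and clusters 1 and 10, and 2 at 1.5-fold. At 28 dpa it was 0 in place of 2 with no doublets removed, and 1 under the stricter filter, tenocyte pooling, all stromal clusters and clusters 1 and 10, and 3 at 1.5-fold. At resolution 2 the number was still 2 but in both directions, with Lox lower (-1.02), Loxl2 higher (1.08) and Plod2 no longer past 2-fold (-0.74).

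The median of the members at 12 dpa (0.09) was -0.021 (looser filter), 0.26 (stricter), 0.15 (no doublets removed), 0.16 (tenocyte pooling), 0.15 (shift removed), -0.10 (thinned), 0.25 (all stromal) and -0.23 (clusters 1 and 10), so its sign depended on the setting. At 17 dpa (-0.17) it was -0.0069 (stricter), -0.024 (no doublets removed) and -0.0080 (resolution 2). At 28 dpa (-0.19) it was -0.017 (looser), -0.015 (stricter), 0.012 (no doublets removed), 0.064 (resolution 2), -0.090 (shift removed) and -0.075 (no gene minimum).

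The related list had 1 gene past 2-fold at 12 dpa, and 2 (looser, resolution 2, tenocyte pooling), 3 (stricter, no doublets removed, 1.5-fold) or 0 (pseudocount of 5 CPM, thinned). Its 6 at 17 dpa became 2 (stricter), 3 (no doublets removed, resolution 2, pseudocount of 5 CPM, all stromal, clusters 1 and 10) or 10 (1.5-fold), and its 15 at 28 dpa became 8 with no doublets removed. The causes were not tested. Depth limits Loxl4 and all members in T or NK-like cells, where 3 UMIs correspond to 2.07 to 14.2 CPM.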
